A study of Sus scrofa with 18 samples.

Results

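The genes described here are 9 genes of the sarcomere, the stretch response and the myogenic programme: ANKRD1, ANKRD2, CSRP3, CSRP2, ENAH, TNNC2, MYLK4, MYF6 and MSTN. They were picked by symbol from a deposited table of 522 genes that the authors list as different between HC-L and HC-P skeletal muscle of adult Hechuan black pigs, which the labels call castrated sows. The table has 3 mRNA libraries of HC-L muscle and 3 of HC-P muscle, and the animals received no treatment that the labels name. The series compares an oxidative with a glycolytic muscle. Its labels name neither HC-L nor HC-P as the oxidative one, and leave unsaid whether each library is from a pig of its own. Small RNA was sequenced from the same muscles, with 3 tissue libraries for each muscle. TNNC2 and MYF6, which mark skeletal muscle, had at least 3626 scaled reads in every mRNA library. All 9 genes were found, 7 by the symbol in the deposited description and 2 (CSRP2 and ENAH) by the reference gene names.

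The sarcomere is the contractile unit of striated muscle, in which actin thin filaments anchored at Z-discs slide past myosin thick filaments, and titin spans from the Z-disc to the middle of the unit as a spring. Proteins bound to titin and the Z-disc report strain to the nucleus, and their genes are induced by stretch, injury or unaccustomed exercise in rodent and human muscle. The myogenic factors are DNA-binding proteins that switch on the muscle programme, and myostatin is a secreted brake on muscle mass.

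The 9 genes were chosen by the same contrast that is described below, so their differences are a description and carry no test. The values are reads scaled by the authors with a single factor per library, and libraries are numbered as in the column names of the table. Of the 9 genes, 8 were higher in HC-L muscle and MYLK4 was lower, where 68.2% of the whole table was listed as higher in HC-L. The HC-L and HC-P libraries did not overlap for 6 of the 9 genes (ANKRD1, CSRP3, CSRP2, ENAH, MYLK4 and MYF6), against 94.4% of the table. Of the 9, 5 were both higher in HC-L and free of overlap, against 62.6% of the table. The groups overlapped for ANKRD2, TNNC2 and MSTN. The median log2 ratio of group means (HC-L over HC-P) was 1.92 over the 9 genes and 1.41 over all 522. In bulk muscle a smaller number of cells of a type and less RNA per cell cannot be told apart.

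**Figure D1:**
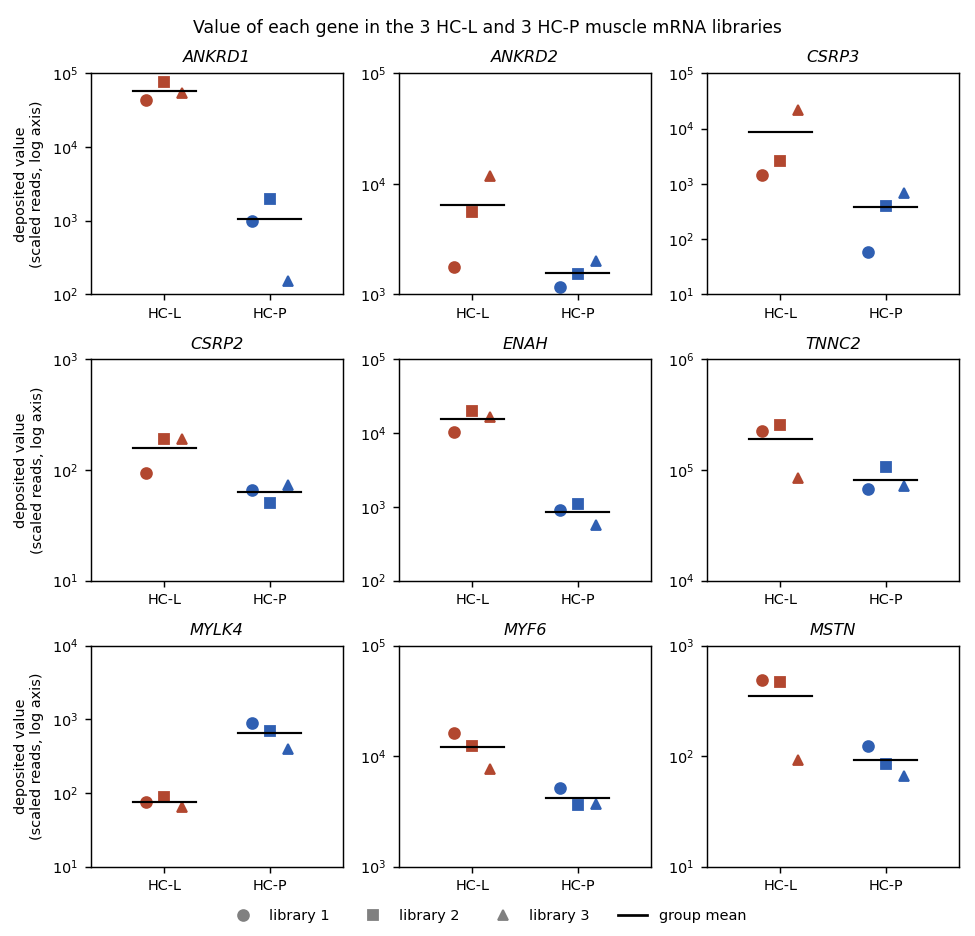
Deposited value (scaled reads, log axis) of each of the 9 genes in the 3 HC-L libraries (left, red) and the 3 HC-P libraries (right, blue), with symbols for the library number and a bar for the group mean. ANKRD1 and ENAH stand far apart between the groups, CSRP3 spans 1437 to 21935 within HC-L, and single libraries of ANKRD2, TNNC2 and MSTN in HC-L lie inside the HC-P range.

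Among the stretch-response genes, ANKRD1 showed the widest separation of the 9 genes. ANKRD1 encodes a cardiac ankyrin repeat protein that binds the N2A region of titin and is induced in loaded or injured muscle. It had 43595, 76460 and 54171 scaled reads in HC-L libraries 1, 2 and 3, against 994, 1971 and 150.2 in the HC-P libraries. The mean was 58075 ± 16777 in HC-L muscle, against 1038 ± 911 in HC-P muscle (SD, n = 3 each), a 55.9-fold difference, and the authors' deposited table gives a log2 fold change of 5.81 with an adjusted p of 7.65e-08. The lowest HC-L library stood 22.1-fold above the highest HC-P library. The HC-L libraries lay within 1.75-fold of each other, while the HC-P libraries spanned 13.1-fold, with library 3 as the low one. Without HC-P library 2 the fold was 102, and without HC-P library 3 it was 39.2.

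ANKRD2, the paralogue of ANKRD1 that also binds titin and is raised by stretch in mouse muscle, behaved differently from library to library. It had 1762, 5566 and 11881 scaled reads in HC-L libraries 1, 2 and 3, and 1160, 1517 and 1996 in the HC-P libraries. HC-L library 1 therefore lay below HC-P library 3, and the groups overlapped. The means were 6403 ± 5111 in HC-L and 1558 ± 419 in HC-P (SD, n = 3 each), a 4.11-fold difference, with a log2 fold change of 2.04 and an adjusted p of 0.00622 in the authors' deposited table. HC-L library 3 held 61.9% of the HC-L sum, and without it the fold was 2.35. Within pairs of libraries of equal number the fold was 1.52, 3.67 and 5.95. Of the other genes on a list of 13 ankyrin repeat and titin I-band genes, TRIM54 was the one in the table. It encodes a ring finger protein of the titin-binding MuRF family and had 10089 ± 2548 scaled reads in HC-L and 4985 ± 198 in HC-P, with no overlap. The authors' deposited table gives it a log2 fold change of 1.02 and an adjusted p of 0.00248. The other 10 were not found by symbol. Of the 13 symbols, 10 are known among the gene names used, and 93 genes of the table have no symbol. A difference in these genes is therefore not shown absent.

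The LIM protein CSRP3 rested on a single library to the greatest extent. CSRP3 (muscle LIM protein) sits at the Z-disc and in the nucleus and takes part in strain sensing in heart and skeletal muscle. It had 1437, 2535 and 21935 scaled reads in HC-L libraries 1, 2 and 3, against 57.3, 394 and 678 in the HC-P libraries. Every HC-L library was above every HC-P library, by 2.12-fold at the closest, and library 3 was the highest and library 1 the lowest in both groups. The mean of 8636 ± 11531 in HC-L stood 22.9-fold above 377 ± 311 in HC-P (SD, n = 3 each), and the authors' deposited table gives a log2 fold change of 4.52 and an adjusted p of 0.0166. HC-L library 3 held 84.7% of the HC-L sum, and without it the fold was 5.27. Left-out HC-P libraries gave 16.1-fold without library 1 and 38.2-fold without library 3. Within pairs of libraries of equal number the fold was 25.1, 6.43 and 32.4. Of the 514 genes of the table with reads in all HC-L libraries, 6 had a wider HC-L range than the 15.3-fold of CSRP3.

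CSRP2, a LIM protein best known from smooth muscle and fibroblasts, was at low values. It had 93.4, 192 and 190 scaled reads in HC-L libraries and 65.4, 50.8 and 72.4 in HC-P libraries. The groups did not overlap, but the lowest HC-L library exceeded the highest HC-P library by only 1.29-fold. The means were 158 ± 56.4 and 62.8 ± 11.0 (SD, n = 3 each), a 2.52-fold difference. The authors' deposited log2 fold change is 1.33, with an adjusted p of 0.0162. These values are 48 to 209 times the smallest value of their library, so they rest on few reads if that smallest value is a single read. SYNPO2 and TAGLN, from a list of 10 smooth muscle markers, were also higher in HC-L, TAGLN at 24.1 ± 6.14 against 4.36 ± 1.11. TAGLN in HC-P is near the floor, as the smallest values above 0 of these libraries are 0.895 to 1.06. SYNPO2, at 17700 ± 4915 against 8780 ± 1909, is also on the list of Z-disc genes below, so it does not mark smooth muscle alone. SYNPO2, TAGLN and CSRP2 are the 3 of the 10 that stand in the table. Their summed value was 12217 to 21492 in HC-L and 6681 to 10278 in HC-P, nearly all of it SYNPO2. The part of smooth muscle in the CSRP2 difference was not tested. The defining markers ACTA2 and MYH11 were not found in the table by symbol.

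Other Z-disc genes of the table had the direction of CSRP3 and CSRP2, which was also that of 68.2% of the table. Of a list of 26 Z-disc and LIM genes, CSRP3 and CSRP2 among them, 8 were listed as higher in HC-L and 0 as lower. The 6 listed genes besides CSRP3 and CSRP2 had a median log2 ratio of 1.79 (1.41 over the table). XIRP1 (Xin), which binds actin and filamin at sites of strain and repair, had 226132, 288290 and 161318 scaled reads in HC-L libraries and 29861, 29026 and 18036 in HC-P libraries. The groups were far apart for XIRP1, with an authors' deposited log2 fold change of 3.13 and an adjusted p of 3.92e-21. FLNC (filamin C), its partner at the Z-disc, was at 221948 ± 54740 in HC-L and 74316 ± 22708 in HC-P, and CRYAB, a small heat shock protein that protects desmin and filamin, at 21304 ± 4294 and 5726 ± 358. BAG3, a co-chaperone that handles strained filamin, had a log2 ratio of 1.87 and SYNPO2 1.01, both without overlap. XIRP2 had a log2 ratio of 1.71, and its HC-L library 1 lay inside the HC-P range.

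ENAH was higher in HC-L, with no overlap between the groups. ENAH (Mena) belongs to the Ena/VASP proteins, which sit at the growing ends of actin filaments and favour their elongation. It had 10350, 19860 and 16613 scaled reads in HC-L libraries, against 916, 1101 and 572 in HC-P libraries. The lowest HC-L library was 9.40-fold above the highest HC-P library, and both groups spanned 1.92-fold within themselves, where the median gene of the table spanned 1.91-fold in HC-L and 1.68-fold in HC-P. The means were 15608 ± 4834 and 863 ± 268 (SD, n = 3 each), an 18.1-fold difference. In the authors' deposited table its log2 fold change is 4.18 and its adjusted p 8.73e-32. With any library left out the log2 ratio stayed between 3.95 and 4.40. Of 20 actin assembly genes, ENAH among them, 4 were in the table, all higher in HC-L and none overlapping between groups, against 68.2% and 94.4% of the table. KLHL40, which stabilises thin filament proteins and whose loss causes nemaline myopathy in people, had 16921 ± 5137 scaled reads in HC-L and 2140 ± 889 in HC-P. Its relative KLHL41 had a log2 ratio of 1.35, and ABRA (STARS), which links actin assembly to gene activation, 1.43.

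TNNC2, the calcium-binding troponin C of fast fibres, was the gene nearest to the limit of the table. It had 226263, 256100 and 85321 scaled reads in HC-L libraries and 66651, 105485 and 72032 in HC-P libraries. HC-L library 3 lay between HC-P libraries 2 and 3, so the groups overlapped. The means were 189228 ± 91214 and 81389 ± 21040 (SD, n = 3 each), a 2.32-fold difference, and the authors' deposited adjusted p was 0.0484, where the largest in the table is 0.0498. Without HC-L library 2 the fold was 1.91, below the 2-fold limit of the table, and it was 2.96 without HC-L library 3. Within pairs of libraries of equal number it was 3.39, 2.43 and 1.18. TNNC2 was the exception among the 9 genes here: the other 8 kept an absolute log2 ratio of at least 1 with each library left out in turn, as did 80.7% of the table.

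TPM1, a tropomyosin that winds along the thin filament, followed the pattern of TNNC2, with 193184, 183455 and 56382 scaled reads in HC-L libraries and 32468, 56800 and 43951 in HC-P libraries. TNNC2 and TPM1 were the genes of a list of 13 troponin and thin filament genes that stood in the table, and both overlapped between groups. No gene of 23 myosin and thick filament genes, of 18 calcium handling genes or of 10 slow fibre markers was in the table, and TNNC2 was the single one of 12 fast fibre markers. In the reference gene names 20 of the 23, 15 of the 18, 8 of the 10 and 10 of the 12 symbols are known, and 93 genes of the table have no symbol. A difference in these genes is therefore not shown absent, and the values of unlisted genes were not analysed here.

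MYLK4 was the gene with the opposite direction. MYLK4 belongs to the myosin light chain kinases, whose best known members phosphorylate the regulatory light chain of myosin. It had 76.3, 88.3 and 64.4 scaled reads in HC-L libraries, against 885, 687 and 389 in HC-P libraries. HC-L libraries lay within 1.37-fold of each other and all far below HC-P, where the lowest library was 4.41 times the highest HC-L library. The means were 76.3 ± 11.9 in HC-L and 654 ± 250 in HC-P (SD, n = 3 each), a log2 ratio of -3.10, and the authors' deposited adjusted p was 1.81e-15. With a library left out the log2 ratio ran between -3.36 and -2.82. MYLK3, the kinase known from the heart, had the same direction at very low values, with 22.1, 1.21 and 5.45 scaled reads in HC-L libraries and 352, 75.1 and 51.6 in HC-P libraries. MYLK4 and MYLK3 were the 2 of 8 light chain kinase and phosphatase genes in the table, and MYLK and MYLK2 were not found by symbol.

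**Figure D2:**
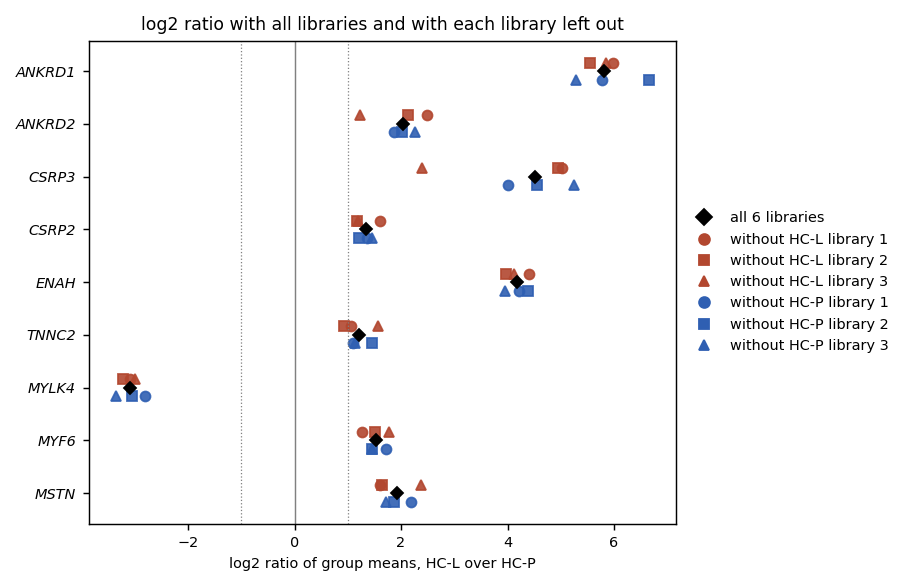
log2 ratio of group means (HC-L over HC-P) for each gene with all 6 libraries (black diamond) and with each HC-L (red) or HC-P (blue) library left out, with dotted lines at -1 and 1. CSRP3 falls to 2.40 without HC-L library 3, TNNC2 passes below 1 without HC-L library 2, and MYLK4 stays between -3.36 and -2.82.

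Of the myogenic genes, MYF6 was higher in HC-L without overlap. MYF6 (MRF4) is the myogenic factor that is most abundant in mature fibres of mice and people. It had 16138, 12346 and 7657 scaled reads in HC-L libraries and 5127, 3626 and 3723 in HC-P libraries. The lowest HC-L value was 1.49-fold above the highest HC-P value. The means were 12047 ± 4249 and 4159 ± 840 (SD, n = 3 each), a 2.90-fold difference, with an authors' deposited log2 fold change of 1.53 and adjusted p of 0.000113. On a list of 25 myogenic factors and their regulators MYF6 and ID4 were in the table, both higher in HC-L, as was 68.2% of the table. ID4, an inhibitor of helix-loop-helix factors, had 386, 740 and 129.8 scaled reads in HC-L libraries and 117, 42.3 and 26.2 in HC-P libraries. MYF5, the neighbour of MYF6 in the Sscrofa11.1 annotation, was not found by symbol, nor were MYOD1, MYOG or PAX7.

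MSTN (myostatin), the secreted growth inhibitor of the TGF-β family that acts through activin receptors, stood above the HC-P range in HC-L libraries 1 and 2 but not in library 3. It had 484, 466 and 92.6 scaled reads in HC-L libraries 1, 2 and 3, against 124, 85.7 and 66.1 in the HC-P libraries. HC-L library 3 lay inside the HC-P range, and the HC-L libraries spanned 5.23-fold. The means were 347 ± 221 and 92.1 ± 29.7 (SD, n = 3 each), a 3.77-fold difference with an authors' deposited log2 fold change of 1.91 and adjusted p of 0.0160. Between libraries of equal number the fold was 3.89, 5.44 and 1.40. MSTN was the only one of 21 myostatin pathway genes found in the table by symbol. Its receptors, its inhibitor FST and the SMAD genes were not found. Of 15 muscle mass genes, such as the ubiquitin ligases FBXO32 and TRIM63, 0 were found, and 13 of these 15 symbols are known. With 93 genes of the table lacking a symbol, a difference in these genes is not shown absent.

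HC-L libraries 1 and 3 were each the highest of HC-L for some of the 9 genes and the lowest for others. Library 3 was the highest HC-L library for ANKRD2 and CSRP3, with log2 distances from the group mean of 0.89 and 1.34. It was the lowest for TNNC2, MYF6 and MSTN, at -1.15, -0.65 and -1.91, and for MYLK4, at -0.24. HC-L library 1 was the lowest for the other 5 genes, among them CSRP3 at -2.59 and ANKRD2 at -1.86. It was the highest for MYF6 (0.42) and MSTN (0.48). Over the 356 genes of the table that were higher in HC-L, library 3 was the lowest HC-L library for 57.6% and the highest for 20.8%. Library 1 was the lowest for 30.9% of them and the highest for 30.9%. MYLK4 is not among these 356 genes. In HC-P, ANKRD1 was low in library 3 (-2.79) and CSRP3 in library 1 (-2.72).

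**Figure D3:**
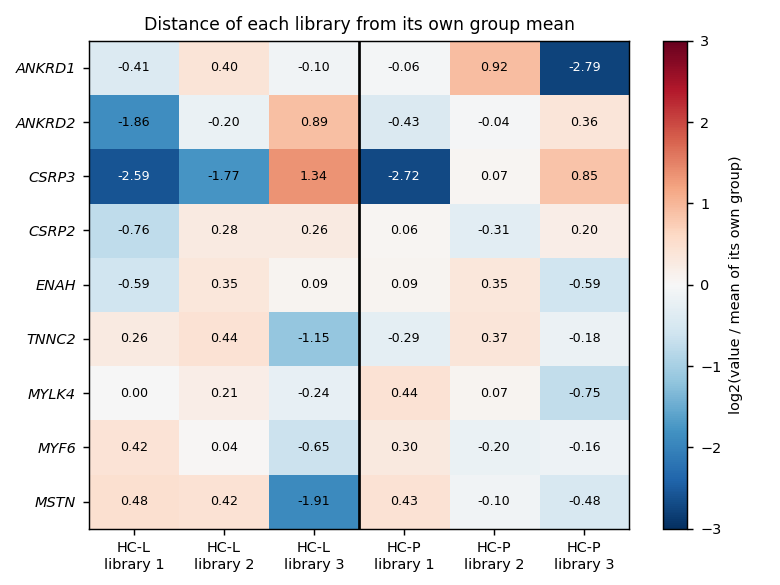
log2 of each value over the mean of its own group for the 9 genes (rows) in the HC-L libraries (left) and HC-P libraries (right), with red above and blue below the group mean. HC-L library 3 is above its group mean for ANKRD2 (0.89) and CSRP3 (1.34) and below it for TNNC2 (-1.15) and MSTN (-1.91).

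Genes of the table with the most similar profile were taken for each of the 9 genes by Pearson's r of log2(value + 1) over the 6 libraries, among 429 genes with a symbol. The libraries share the contrast that chose the table. The median of the 429 genes reached r = 0.992 with its nearest neighbour among them, so these values describe likeness only. For ANKRD1 they were SOX9 (0.995) and KLHL40 (0.988), and for ENAH they were CXCL8 (0.998) and CRYAB (0.993). MYF6 was nearest to PPP1R15A (0.998) and ERRFI1 (0.996), MSTN to RYBP (0.985) and MID1IP1 (0.984), and TNNC2 to TNFRSF11B (0.989) and TPM1 (0.986). CSRP3 was nearest to MUSK (0.984), the receptor kinase of the neuromuscular junction, and to ZNF697 (0.968). ANKRD2 was nearest to ZNF385B (0.982) and ABHD5 (0.967), CSRP2 to GLIPR2 (0.989) and MED12L (0.981), and MYLK4 to POR (0.991) and ADA2 (0.990).

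**Figure D4:**
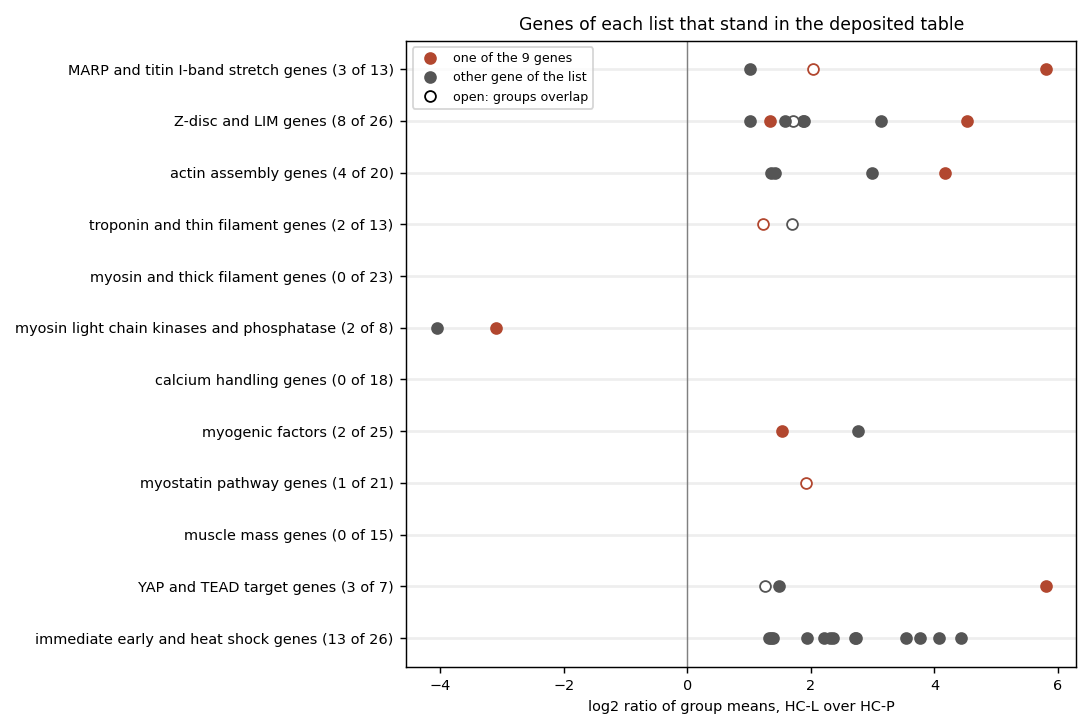
log2 ratio of group means (HC-L over HC-P) of the genes of each related list that stand in the deposited table, with the number listed of the number on the list in brackets. The 9 genes are red and other genes grey, and open points mark groups that overlap. All points lie to the right of 0 except MYLK4 and MYLK3, and the myosin, calcium handling and muscle mass lists hold no point.

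Targets and stress genes that can move with the stretch response were listed as well. Of 7 targets of the strain-sensitive co-activator YAP and its partner TEAD, ANKRD1, CCN2 and CCN1 were in the table. All were higher in HC-L, as was 68.2% of the table, and ANKRD1 is one of the 9 genes. CCN2 had 2621 ± 682 scaled reads in HC-L and 938 ± 597 in HC-P, and CCN1 had 3610 ± 1517 and 1515 ± 496 with overlapping groups. Of 26 immediate early and heat shock genes, 13 were listed, all higher in HC-L and none overlapping between groups, against 68.2% and 94.4% of the table. Their median log2 ratio was 2.37 (1.41 over the table). FOS, a transcription factor subunit induced within minutes of a stimulus, had 34679, 14489 and 5191 scaled reads in HC-L libraries and 817, 1274 and 427 in HC-P libraries. Their summed value was 108832 to 239216 in HC-L and 48753 to 63314 in HC-P, and HC-L library 3 was the lowest HC-L library for 12 of the 13, against 57.6% of the genes higher in HC-L. Among the 9 genes it was the lowest for TNNC2, MYF6, MSTN and MYLK4 and the highest for ANKRD2 and CSRP3. The part of these 13 genes in the differences of the 9 was not tested.

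Some markers of other cells were also in the table, and unlisted markers have no value here. Of 8 adipocyte markers, 5 were in the table, of which LEP, PLIN1, ADIPOQ and CIDEC were higher in HC-L and LPL, which muscle fibres also make, was lower. ADIPOQ had 387 ± 274 scaled reads in HC-L, against 96.7 ± 33.0 in HC-P. LEP, the fat hormone leptin, had 39.2, 88.3 and 22.7 scaled reads in HC-L libraries and 0.895, 1.06 and 3.62 in HC-P libraries, a log2 ratio of 4.75. In HC-P libraries 1 and 2 these are the smallest values above 0 of the library, so the size of the ratio is uncertain. The summed value of the 5 was 5286 to 9165 in HC-L and 12065 to 16293 in HC-P, most of it LPL. Without LPL the sum was 407 to 1818 in HC-L and 115 to 317 in HC-P, with no overlap between the groups. No gene of the lists for satellite cells, fibroblasts, endothelium, red cells, immune cells, nerve, tendon or heart was found in the table by symbol. The part of other cells in the values of the 9 genes was not tested.

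The deposited table also names miRNAs as related to a gene, by a rule that none of the sources used here gives. It relates 33 different miRNAs to 6 of the 9 genes and none to CSRP3, ENAH and MSTN, where 61.3% of the table has a related miRNA. MYLK4 has 12, ANKRD2 8, TNNC2 and MYF6 6 each, ANKRD1 4 and CSRP2 3. In the small RNA libraries of muscle tissue, 8 of the 33 had 0 reads in every library and 13 averaged at least 1 TPM (the deposited value, reads relative to all miRNA reads of the library). All 13 were highest in HC-P tissue library 1, as were 63.0% of the 276 miRNAs at that level, and 0 of the 13 separated HC-L from HC-P libraries, against 5.43% of the 276. Without that library 2 of the 13 did, against 14.5% of the 276.

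The miRNAs related to these genes that the authors' deposited table of tissue miRNAs lists were miR-1307 for TNNC2, miR-1296-5p for ANKRD2 and novel_175 for CSRP2. miR-1307 had 64.8, 32.7 and 53.4 TPM in HC-L tissue libraries and 866, 75.0 and 39.0 TPM in HC-P tissue libraries. Its HC-P mean rested on library 1, while HC-P library 2 lay above the HC-L range and HC-P library 3 inside it. miR-1296-5p had 2.32, 1.77 and 1.58 TPM in HC-L tissue libraries and 58.8, 4.15 and 0.90 in HC-P tissue libraries. novel_175 had 0 TPM in every HC-L tissue library and 5.30, 0 and 0.15 TPM in the HC-P tissue libraries. The log2 fold changes in the authors' deposited table were -1.66, -2.32 and -5.01 for these 3, each with an adjusted p of 0.998.

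**Figure D5:**
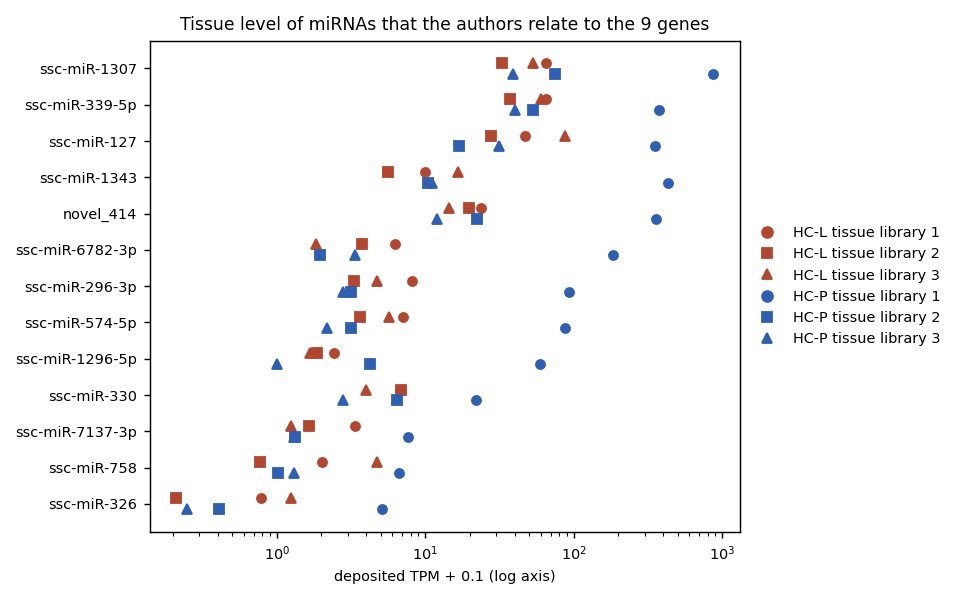
Level (deposited TPM + 0.1, log axis) in HC-L tissue libraries (red) and HC-P tissue libraries (blue) of the 13 miRNAs that the authors relate to the 9 genes and that averaged at least 1 TPM. HC-P tissue library 1 (blue circle) is the highest library for all 13, and the other HC-P libraries overlap with HC-L for most.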

How the data were processed

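The deposited mRNA table gives, per gene and library, a signal that the authors scaled. Dividing the values of a library by its smallest one gave whole numbers for all genes (within 0.001), as scaled read counts do. The log2 fold change and the adjusted p-value of the authors are quoted as deposited. No source used here gives their test, aligner, genome build or annotation. The table holds 522 genes with an adjusted p-value up to 0.0498 and an absolute log2 fold change from 1.00, so total depth is unknown and no test was run. The deposited TPM of miRNAs is, per the file headers, the authors' value. Columns were assigned to groups only, because their names fit titles of both small RNA and mRNA libraries. Genes were named by the description column, or by the reference gene names where it was blank.

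Group means, SDs, ratios and overlaps were computed in Python 3.11.15 with pandas 2.3.3 and numpy 2.4.6, and checked on simulated data. Log2 ratios are of group means with no pseudocount. Over the genes of the table, deviations from the group means correlated weakly between libraries of equal number (0.20, 0.24 and 0.15). Between libraries of unlike number the correlations were -0.14 to -0.05. The labels do not say that libraries of equal number share a pig, so a pairing is not established. A replicate block was tried as an alternative. The lists, the genes and the rule for named genes (all 9, up to 8 listed genes of each list, and the 2 most alike genes of each) were chosen with earlier results of these data known. Other alternatives left out each library, rescaled the libraries, or changed the summary, the pseudocount or the filter on low values.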

Additional observations from a re-analysis of the deposited data

How the results depend on the processing

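No direction of the 9 genes changed under any alternative run. With a library left out, the log2 ratio (HC-L over HC-P) ranged from 5.29 to 6.67 for ANKRD1, 1.23 to 2.49 for ANKRD2, 2.40 to 5.26 for CSRP3, 1.17 to 1.60 for CSRP2, 0.94 to 1.57 for TNNC2, 1.27 to 1.78 for MYF6 and 1.60 to 2.37 for MSTN. The genes without overlap then numbered 6 to 8 of the 9, and 494 to 514 of the 522. Leaving out a library can remove an overlap but not create one. These counts therefore could not fall below the 6 and 493 with all libraries, and are no measure of stability. Rescaling by medians of ratios over the 522 genes, of which 356 are higher in HC-L, moves the median log2 ratio of all genes by -1.10 by its construction. It gave 4.71 for ANKRD1, 1.03 for ANKRD2, 3.60 for CSRP3, 0.25 for CSRP2 and 3.09 for ENAH. For TNNC2 the value was 0.077, for MYLK4 -4.19, for MYF6 0.43 and for MSTN 0.76. Under it 5 of the 9 genes and 322 of the 522 had an absolute log2 ratio of at least 1, against 9 and 521 as deposited, and the groups did not overlap for 4 of the 9 and 292 of the 522. With the replicate block (mean log2 ratio within pairs of libraries of equal number) the values were 6.41 for ANKRD1, 1.68 for ANKRD2, 4.11 for CSRP3 and 1.62 for MSTN. Then 9 of the 9 genes kept an absolute log2 ratio of at least 1, as did 518 of the 522. The mean of log2(value + 1) without pairs gives the same values by construction, so the block cannot show whether pairing matters. In all, 139 of 149 values moved by less than the spread between libraries, or by at most 1.5 times for counts. Both the replicate block and the equal mean of log2 values are counted in the 149. The depth of the libraries is unknown, and CSRP2, MYLK4 and MSTN rest on the lowest values.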
